A study of Mus musculus with 6 samples.

Results

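The genes described here are 42 mouse genes of DNA replication and mitosis, taken by symbol from a table of RNA-seq read counts for 22905 gene symbols. They comprise 3 cyclin genes of the G1 phase (Ccnd1, Ccnd2 and Ccnd3), 18 genes of S phase entry and DNA synthesis, and 21 genes of mitosis. All 42 symbols were in the table, and all 42 passed the filter on low counts, as did 14439 genes in all. The choice of genes used no measured value as its criterion, although results of these libraries were already known when it was made. The RNA came from mouse primary hepatic stellate cells, liver pericytes that store vitamin A and become matrix-producing myofibroblasts after injury. In the DOX group, 3 libraries came from mice of the genotype BucheKI/KI-Hep given CCl4 and labelled DOX, a label that the samples do not spell out. In the PBS group, 3 libraries came from mice of the same genotype given CCl4 and labelled PBS. Both groups therefore share the BucheKI/KI-Hep genotype and the CCl4 exposure, a liver toxin used to model fibrosis, and the genotype label does not say which promoter drives the introduced allele. Every animal carried the allele, so a response to DOX itself and a response to the introduced gene cannot be told apart. The sources used here do not state doses, times, ages or the number of animals. The labels do not say whether replicates are separate animals, so each p-value reflects how far these libraries scatter, and that scatter may be technical.

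A dividing cell passes from G1 through S phase to mitosis. D-type cyclins bind Cdk4 and Cdk6 in response to growth factors and start the inactivation of RB proteins, which frees E2F factors to raise transcription of the genes for origin licensing, replication forks and deoxynucleotide supply. Genes of mitosis are switched on later, in G2, through the MuvB complex with B-MYB and FOXM1, and are kept silent in resting cells by the DREAM complex. In the liver, stellate cells divide little at rest and proliferate after injury, and resident macrophages, endothelial cells and hepatocytes can divide as well.

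Library totals lay between 36220282 and 37707364 reads, so 1 read was worth 0.0253 to 0.0293 CPM (normalised count on TMM-scaled library sizes). A count of 0 allows up to 3 reads, or 0.0758 to 0.0878 CPM, and covers counting error only. No member had a count of 0 in any library, and the lowest was 15 reads, for Bub1 in PBS library 1. Transcripts of Bche, which encodes butyrylcholinesterase, the enzyme that the genotype's name points to, gave 1225, 582 and 3639 reads in the DOX libraries, against 8, 26 and 14 reads in the PBS libraries. The gene was higher in each DOX library, with a log2 fold change of 6.91 (SE 0.85, adjusted p = 0.0206 by edgeR). The call ended by limma-voom (adjusted p = 0.0697) and without PBS library 2 or 3 (edgeR adjusted p = 0.0694 and 0.0845), and adjusted p over 15 alternatives ran from 6.80e-14 to 0.0845. DOX library 3 was the highest and DOX library 2 the lowest of the DOX group for Bche and also for Alb, the hepatocyte albumin gene, with 11836, 4111 and 68242 reads in the DOX libraries, against 3221, 6361 and 8257 reads in the PBS libraries, and the part of hepatocyte RNA in the Bche difference was not tested. Stellate cell markers were present in both groups, and 0 of 12 quiescent and 0 of 10 activated stellate markers passed the test by edgeR. At an unadjusted p of 0.05 the counts were 0 and 2, and by DESeq2 they were 0 and 2, both lower in DOX. The quiescent list, led by Dcn and Ecm1, summed to 813 to 1268 CPM in DOX libraries and 654 to 1439 CPM in PBS libraries. The activated list, led by Fn1 and Col3a1, summed to 900.4 to 1396 CPM in DOX libraries and 843 to 1905 CPM in PBS libraries. Markers of other cells were abundant too. The endothelial list, led by Cdh5 and Pecam1, summed to 4370 to 5546 CPM in DOX libraries and 5002 to 6070 CPM in PBS libraries, with 1 of 10 genes (Tek) lower in DOX, and the macrophage list is given beside the results below. In a bulk sample, a change in the number of cells of one type and a change in RNA per cell cannot be told apart.

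Among the 42 genes, 4 rose in DOX and 0 fell. The genes that rose were Ccnd1, which encodes cyclin D1, and the mitotic genes Top2a, Mki67 and Nusap1. These 4 genes are 9.52% of the members, against 6.41% of all genes tested (926 of 14439), and against 4.38% of all genes for calls higher in DOX and 2.04% for calls lower in DOX. A gene was called where its adjusted p fell under 0.05 in the quasi-likelihood test of edgeR over all genes. By position in the cycle, 1 of 3 G1 cyclins, 0 of 18 S phase genes and 3 of 21 mitotic genes rose. The direction of the estimates, called or not, also differed by position. The median log2 fold change, DOX over PBS, was 0.90 over the mitotic genes, with all 21 above 0 (20 by library totals, where Bub1b was at -0.01). It was 0.07 over the S phase genes, with 10 above and 8 below 0, and -0.0567 by library totals. The median over all genes tested was -0.01, and -0.14 by library totals. At an unadjusted p of 0.05, 17 of 21 mitotic and 2 of 18 S phase genes were higher in DOX, none was lower, and 28.7% of all genes reached that level in either direction. With DESeq2, 13 of 21 mitotic genes, 2 of 18 S phase genes and 1 of 3 G1 cyclins were higher and none was lower, against 19.8% of all genes called in either direction. With limma-voom, 3 members were called, against 5.97% of all genes. Every DOX library lay above every PBS library for 22 members and below for 3, against 34.6% of all genes for both directions together.

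**Figure D1:**
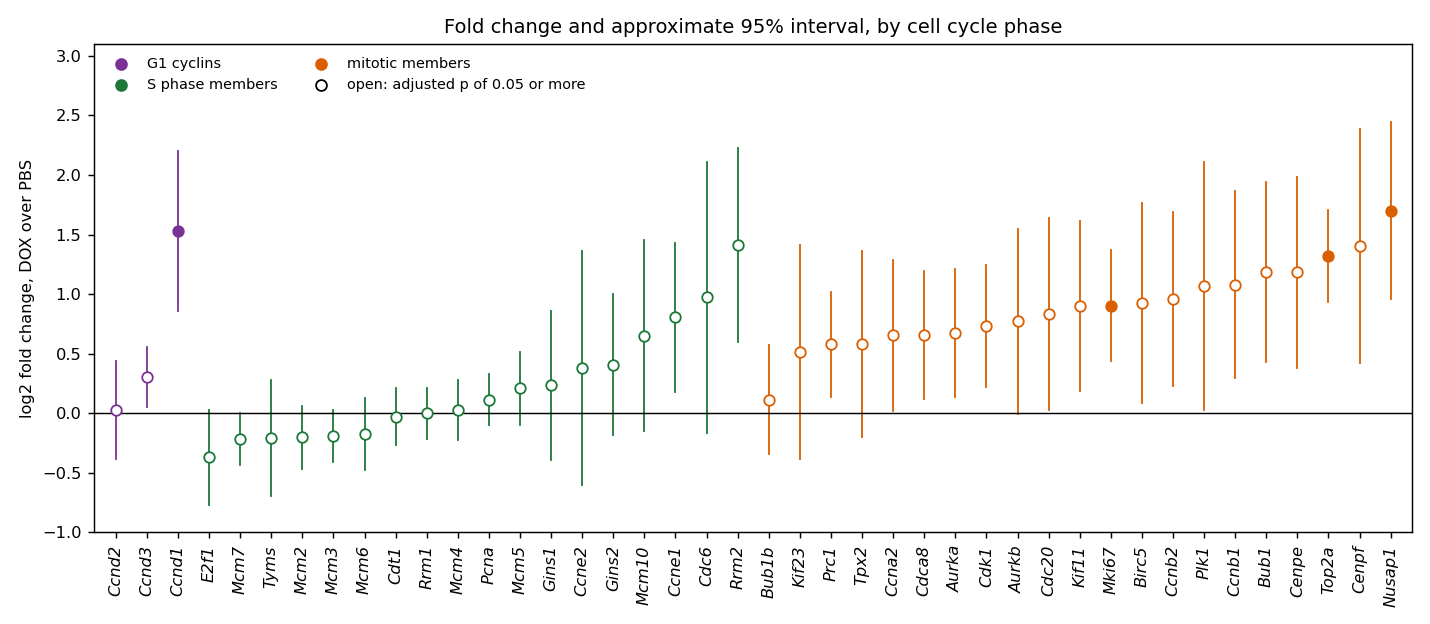
Log2 fold change (DOX over PBS) of each of the 42 genes from the edgeR fit, with approximate 95% intervals; filled points have an adjusted p under 0.05. The genes are grouped as G1 cyclins, S phase genes and mitotic genes. All 21 mitotic estimates lie above 0 (Bub1b was at -0.01 by library totals), between 0.11 and 1.70, while the S phase estimates lie on both sides of 0, between -0.37 and 1.41.

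The plot of fold changes shows how far the groups overlap as well as how they differ. The upper S phase estimates, those of Rrm2 and Cdc6, lie among the mitotic ones, and the lowest mitotic estimate, that of Bub1b, lies among the S phase ones.

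Of the 3 D-type cyclin genes, 1 rose. Cyclin D1 (Ccnd1, chr7:144929931-144939831, GRCm38.p6) is the D cyclin most closely tied to mitogen signalling. Ccnd1 gave 5587, 3074 and 2972 reads in the DOX libraries, against 1210, 1703 and 1504 reads in the PBS libraries. On the CPM scale these were 164, 86.6 and 81.1 CPM in the DOX libraries, against 32.1, 44.6 and 38.0 CPM in the PBS libraries. Each DOX library lay above each PBS library, and DOX library 1 stood apart above the other DOX libraries. The mean level was 110.4 ± 46.1 CPM in DOX and 38.2 ± 6.24 CPM in PBS (SD, n = 3 each), 2.89-fold higher in DOX, with a log2 fold change of 1.53 (SE 0.29, adjusted p = 0.0334 by edgeR). Without DOX library 1 the log2 fold change was 1.14 and the edgeR adjusted p was 0.0493. Leaving out PBS library 1, 2 or 3 ended the call, at edgeR adjusted p = 0.0642, 0.0869 and 0.115, and adjusted p over all 15 alternatives ran from 1.01e-05 to 0.115.

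Cyclin D2 (Ccnd2) and cyclin D3 (Ccnd3) share the kinases of cyclin D1. Ccnd2 stood at 128, 139 and 105 CPM in the DOX libraries, against 142, 94.1 and 129 CPM in the PBS libraries. The groups overlapped, and the estimate was 0.02 (95% interval -0.38 to 0.43, edgeR adjusted p = 0.941). Ccnd3 stood at 46.0, 45.8 and 37.9 CPM in the DOX libraries, against 36.2, 33.0 and 35.7 CPM in the PBS libraries. Each DOX library lay above each PBS library by a small margin, 1.24-fold on average, and the difference did not pass the test (log2 fold change 0.31, SE 0.11, adjusted p = 0.118 by edgeR). On the per-length scale of FPKM (which divides by gene length and library total), Ccnd1 averaged 27.8 ± 10.6 FPKM in DOX and 10.6 ± 1.89 FPKM in PBS. The level of Ccnd1 was 2.80, 1.37 and 1.69 times that of Ccnd2 in the DOX libraries, against 0.494, 1.04 and 0.643 times in the PBS libraries. Ccnd1 was thus the more abundant of the pair in all 3 DOX libraries and in 1 of 3 PBS libraries.

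Exons of Ccnd1 overlap those of LTO1 on the opposite strand by 1100 of 4709 bases (23.4%), and whether counting used strand is unknown. LTO1 itself stood at 20.3 ± 3.36 CPM in DOX and 19.5 ± 1.25 CPM in PBS (edgeR adjusted p = 0.837). Macrophage markers moved with Ccnd1. The 12 macrophage genes, led by Mpeg1 and Marco, summed to 12637, 6993 and 7631 CPM in the DOX libraries, against 3486, 5639 and 3637 CPM in the PBS libraries. All 12 estimates were positive, 10 had every DOX library above every PBS library, and 2 (C1qb and C1qc) passed the test by edgeR. The count was 10 at an unadjusted p of 0.05, and DESeq2 called 9 and limma-voom 3. None of the 12 was at 0 in any library, and DOX library 1 was highest in both the macrophage sum and Ccnd1. The part of these cells in the Ccnd1 difference was not tested.

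The S phase group opens with the regulators of its entry. E2F1 (E2f1) is the activator that drives S phase genes, and cyclins E1 and E2 (Ccne1 and Ccne2) activate Cdk2 at the start of DNA synthesis. E2f1 stood at 4.18, 3.77 and 4.04 CPM in the DOX libraries, against 4.88, 5.28 and 5.35 CPM in the PBS libraries. Each DOX library was below each PBS library, and the estimate of -0.37 (SE 0.17) did not pass the test (edgeR adjusted p = 0.200). Ccne1 lay on the other side, at 4.10, 2.82 and 2.70 CPM in the DOX libraries, against 1.56, 2.07 and 1.87 CPM in the PBS libraries. Its groups did not overlap either, with DOX above (log2 fold change 0.80, SE 0.27, adjusted p = 0.105 by edgeR). Ccne2 stood at 2.87, 5.29 and 1.99 CPM in the DOX libraries, against 1.72, 2.98 and 3.08 CPM in the PBS libraries, with overlapping groups and an estimate of 0.38 (SE 0.42) that rested on DOX library 2 and became -0.10 without it. Exons of Ccne2 overlap those of Ints8 on the opposite strand by 17.4%.

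Origin licensing loads the Mcm2 to Mcm7 helicase onto DNA in G1, and the helicase then travels with the fork in S phase. These 6 genes were among the more abundant members, and all 6 estimates lay between -0.21 and 0.21. Mcm2 stood at 20.7, 25.9 and 23.6 CPM in the DOX libraries, against 26.9, 26.4 and 27.5 CPM in the PBS libraries. Mcm7 stood at 49.0, 53.6 and 56.5 CPM in the DOX libraries, against 57.7, 65.6 and 61.3 CPM in the PBS libraries. In both, each DOX library lay below each PBS library, at log2 fold changes of -0.20 (SE 0.11) and -0.21 (SE 0.09), with edgeR adjusted p of 0.275 and 0.180. Mcm3 stood at 63.6, 72.1 and 64.0 CPM in the DOX libraries, against 70.1, 79.1 and 78.3 CPM in the PBS libraries. Its groups overlapped, and its estimate was -0.19 (SE 0.09). Mcm6 stood at 53.3, 61.5 and 67.8 CPM in the DOX libraries, against 78.7, 64.2 and 63.1 CPM in the PBS libraries, also with overlapping groups and an estimate of -0.17 (SE 0.13). The estimates were 0.02 for Mcm4 (SE 0.11) and 0.21 for Mcm5 (SE 0.13), and Mcm5 had every DOX library above every PBS library at 11.6, 12.8 and 13.5 CPM in the DOX libraries, against 11.4, 11.5 and 9.98 CPM in the PBS libraries.

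None of the 6 helicase genes passed the test by edgeR, DESeq2 or limma-voom, against 6.41%, 19.8% and 5.97% of all genes. At an unadjusted p of 0.05, 0 of 6 were reached by any of these tools, against 28.7% of all genes by edgeR. Their median log2 fold change was -0.18, and the upper ends of their 95% intervals lay between 0.0035 and 0.52, below the mitotic median of 0.90. Their FPKM, which are not TMM-scaled, summed to 61.6, 70.7 and 74.0 in the DOX libraries, against 80.2, 86.3 and 84.0 in the PBS libraries. Their CPM summed to 224, 252 and 249 CPM in the DOX libraries, against 268, 273 and 266 CPM in the PBS libraries. On both scales each DOX library was below each PBS library. The 4 negative signs were Mcm2, Mcm3, Mcm6 and Mcm7, and Mcm4 became the fifth where library totals replaced TMM scaling.

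The other licensing and fork genes gave 0 calls by edgeR, against 6.41% of all genes tested. Cdt1 and Cdc6 load the helicase with the origin recognition complex. Cdt1 stood at 15.7, 16.3 and 16.3 CPM in the DOX libraries, against 15.9, 16.4 and 17.0 CPM in the PBS libraries, with overlapping groups and an estimate of -0.03 (SE 0.10). Cdc6 was low and scattered at 2.17, 2.11 and 0.764 CPM in the DOX libraries, against 0.875, 0.549 and 1.14 CPM in the PBS libraries, with 1 DOX library inside the PBS range (log2 fold change 0.97, SE 0.48, adjusted p = 0.234 by edgeR). Mcm10, which helps start the fork, stood at 3.13, 2.48 and 2.10 CPM in the DOX libraries, against 1.17, 2.35 and 1.39 CPM in the PBS libraries (log2 fold change 0.65, SE 0.34), also with overlapping groups. Gins1 and Gins2 encode subunits of the GINS complex of the active helicase, and their estimates were 0.23 (SE 0.27) and 0.41 (SE 0.25). Annotated exons of Gins2 overlap those of Gse1 on the opposite strand by 2758 of 4097 bases (67.3%). The gene length behind its FPKM is 1038 bases, so how much of the overlap was counted is unknown. Pcna, which encodes the sliding clamp of the replicative polymerases, was the most abundant member per length, at 113 ± 8.46 FPKM in DOX and 113 ± 8.21 FPKM in PBS. Its CPM were 148, 144 and 153 CPM in the DOX libraries, against 152, 129 and 129.9 CPM in the PBS libraries, with overlapping groups (log2 fold change 0.12, SE 0.09, adjusted p = 0.451 by edgeR).

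Deoxynucleotide supply gave the S phase gene with the largest estimate. Ribonucleotide reductase, which makes deoxynucleotides, pairs a large subunit (Rrm1) with a small subunit (Rrm2, chr12:24708254-24714146) that is limiting and restricted to S phase in cycling cells. Rrm2 gave 152, 196 and 92 reads in the DOX libraries, against 46, 67 and 68 reads in the PBS libraries. On the CPM scale these were 4.45, 5.52 and 2.51 CPM in the DOX libraries, against 1.22, 1.75 and 1.72 CPM in the PBS libraries, with each DOX library above each PBS library. The estimate was 2.66-fold (log2 fold change 1.41, SE 0.34), and the edgeR adjusted p of 0.0564 just missed the threshold. It was called with no low-count filter (edgeR adjusted p = 0.0481), without DOX library 3 (edgeR adjusted p = 0.0287) and by DESeq2 (adjusted p = 0.0024), and the range over 14 alternatives was 0.0024 to 0.158.

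Rrm1 stood at 29.1, 29.1 and 27.1 CPM in the DOX libraries, against 28.0, 29.9 and 27.6 CPM in the PBS libraries, with overlapping groups and an estimate of -0.0017 (SE 0.09). On the FPKM scale Rrm2 was 28.1%, 34.7% and 17.0% of Rrm1 in the DOX libraries, against 7.99%, 10.8% and 11.4% in the PBS libraries. The small subunit was therefore below the large one in all 6 libraries and nearer to it in each DOX library. Thymidylate synthase (Tyms), which makes the thymidine precursor dTMP, stood at 3.48, 4.70 and 3.66 CPM in the DOX libraries, against 4.40, 4.16 and 5.10 CPM in the PBS libraries, with overlapping groups and an estimate of -0.21 (SE 0.21).

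Within S phase the estimates differed by level. At a mean of 3 FPKM, a boundary chosen after the values were seen, the 18 genes divide into 9 above (Mcm2 to Mcm7, Cdt1, Pcna and Rrm1) and 9 below. The 9 above had estimates from -0.21 to 0.21 with a median of -0.03, SEs of 0.09 to 0.13, and upper interval ends of at most 0.52. The 9 below had estimates from -0.37 to 1.41 with a median of 0.41, 7 of them positive, and SEs of 0.17 to 0.48. All 21 mitotic genes were also below 3 FPKM, between 0.155 FPKM for Cenpf and 2.59 FPKM for Mki67. Position in the cycle and level thus go together in these members, which hold no mitotic gene at the level of Mcm2 to Mcm7.

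**Figure D2:**
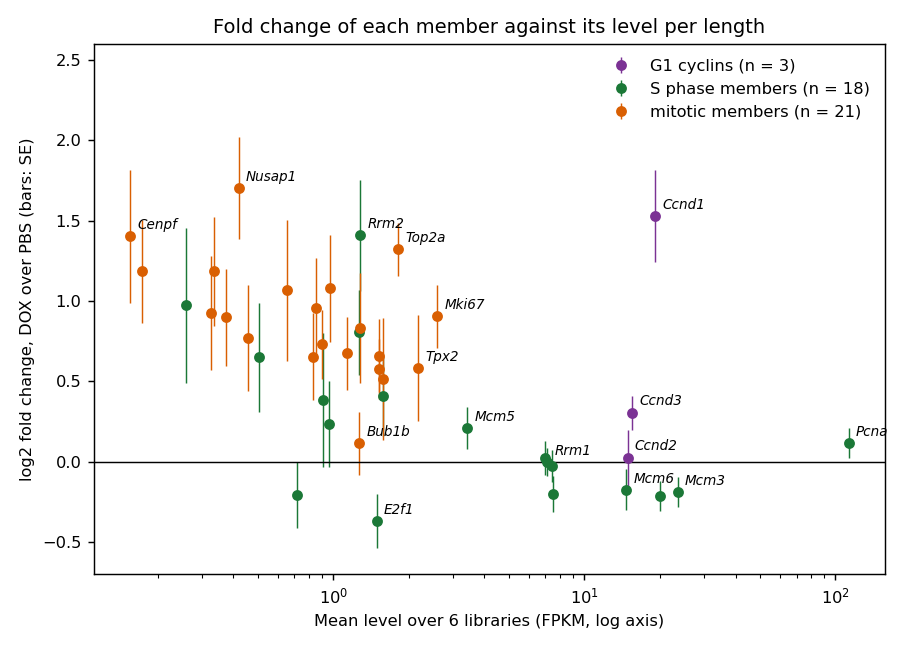
Mean FPKM over the 6 libraries (log axis) against log2 fold change (DOX over PBS), 1 point for each of the 42 genes, coloured by position in the cycle; bars are SEs. The 9 S phase genes above 3 FPKM lie between -0.21 and 0.21, and every mitotic gene lies below 3 FPKM and above 0 (Bub1b was at -0.01 by library totals).

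The plot of level against fold change places Ccnd1 apart from the other members that rose. It averaged above 10 FPKM in both groups, while Top2a, Mki67 and Nusap1 are low.

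Among the mitotic genes, 3 of 21 rose. All 3 act on chromosomes or the spindle, as do members that were not called, such as Kif11, Cenpe, Cenpf and Tpx2. The 21 estimates ran from 0.11 (Bub1b) to 1.70 (Nusap1), and 7 were at least 2-fold. In 16 of 21 genes each DOX library lay above each PBS library, against 16.9% of all genes tested (17.7% had each DOX library below), and in the other 5 (Plk1, Bub1b, Cdc20, Tpx2 and Kif23) the groups overlapped. The FPKM of the 21 genes summed to 27.1, 22.3 and 29.0 in the DOX libraries, against 15.9, 16.7 and 17.0 in the PBS libraries.

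Top2a (chr11:98992947-99024199) encodes topoisomerase II alpha, which untangles and condenses chromosomes. Top2a gave 525, 450 and 489 reads in the DOX libraries, against 183, 205 and 251 reads in the PBS libraries. On the CPM scale these were 15.4, 12.7 and 13.3 CPM in the DOX libraries, against 4.85, 5.36 and 6.34 CPM in the PBS libraries, with small spread in each group and no overlap. The mean level was 13.8 ± 1.40 CPM in DOX and 5.52 ± 0.756 CPM in PBS (SD, n = 3 each), 2.50-fold higher in DOX (log2 fold change 1.32, SE 0.16, adjusted p = 0.0206 by edgeR). Top2a had the smallest p of the 42 genes and the rank 53 among all genes tested. The call ended without DOX library 1, PBS library 2 or PBS library 3, at edgeR adjusted p = 0.0589, 0.0694 and 0.0739, and adjusted p over 15 alternatives ran from 9.85e-11 to 0.0739.

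Mki67 (chr7:135689784-135716450) encodes Ki-67, the coat protein of mitotic chromosomes used to stain dividing cells. It was the most abundant mitotic member per length, and gave 904, 1416 and 1415 reads in the DOX libraries, against 834, 594 and 729 reads in the PBS libraries. On the CPM scale these were 26.5, 39.9 and 38.6 CPM in the DOX libraries, against 22.1, 15.5 and 18.4 CPM in the PBS libraries. DOX libraries 2 and 3 were close together, and DOX library 1 was only slightly above the highest PBS library. The log2 fold change was 0.90 (SE 0.20, adjusted p = 0.0455 by edgeR). This call was close to the threshold. It ended in 10 of 15 alternatives, among them library totals (edgeR adjusted p = 0.0563), limma-voom (adjusted p = 0.0505) and the removal of DOX library 1, 2 or 3 (edgeR adjusted p = 0.0623, 0.0952 and 0.0799) or of PBS library 2 or 3 (edgeR adjusted p = 0.123 and 0.142). Over the 15 alternatives adjusted p ran from 0.000925 to 0.142.

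Nusap1 (chr2:119618298-119650165) encodes a protein that bundles spindle microtubules around chromosomes. It was low, at 73, 44 and 66 reads in the DOX libraries, against 20, 20 and 21 reads in the PBS libraries. On the CPM scale these were 2.14, 1.24 and 1.80 CPM in the DOX libraries, against 0.530, 0.523 and 0.530 CPM in the PBS libraries, so the PBS libraries were nearly equal and all DOX libraries were above them. The estimate was 3.25-fold (log2 fold change 1.70, SE 0.32, adjusted p = 0.0332 by edgeR). The call ended without DOX library 1 (edgeR adjusted p = 0.106) or without PBS library 1, 2 or 3 (edgeR adjusted p = 0.0632, 0.105 and 0.118), and adjusted p over 14 alternatives ran from 0.000390 to 0.118. Exons of Nusap1 overlap those of Oip5 on the opposite strand by 4.24%, and Oip5 stood at 0.410 ± 0.256 CPM in DOX and 0.189 ± 0.103 CPM in PBS. Without PBS library 2 or PBS library 3 no gene in the whole table passed the test, while 19 and 17 of the 42 members had an unadjusted p under 0.05, and with these libraries 21 did.

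**Figure D3:**
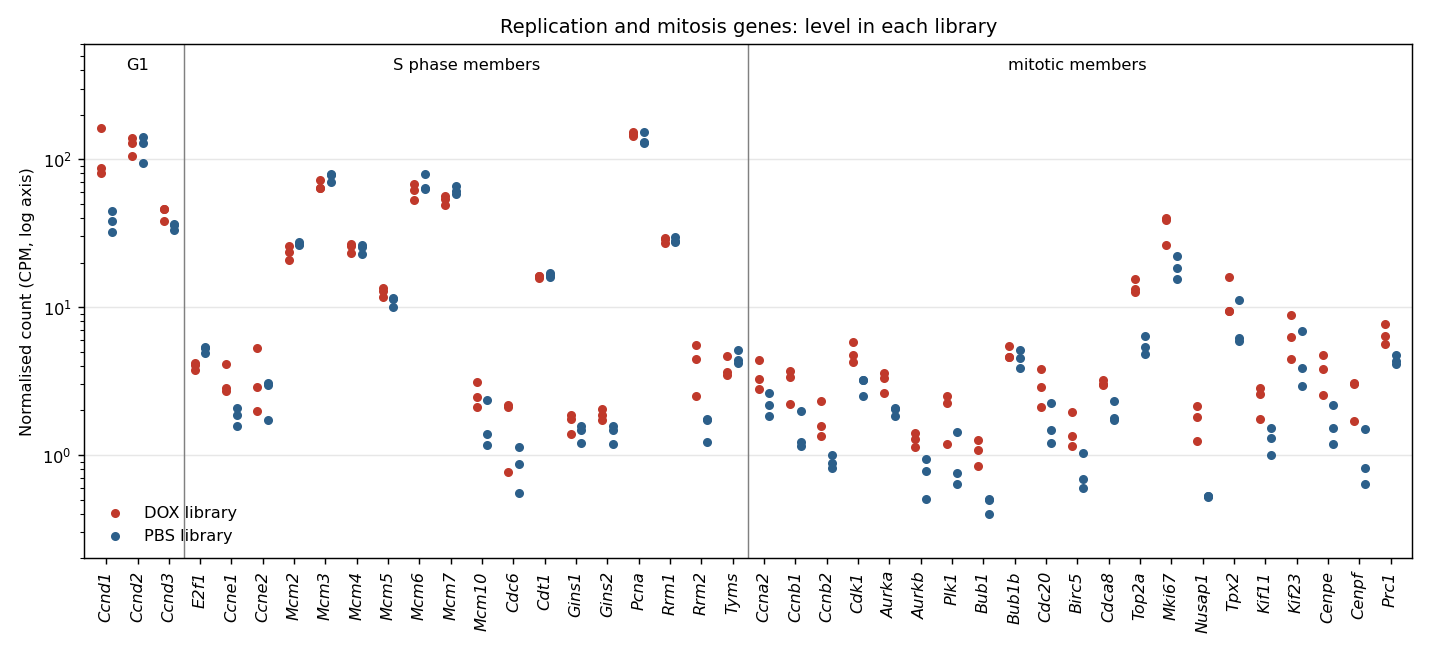
CPM (log axis) of each of the 42 genes, with the 3 DOX libraries left of the 3 PBS libraries; each point is 1 library, and vertical lines divide G1 cyclins, S phase genes and mitotic genes. Ccnd1, Top2a, Mki67, Nusap1 and Rrm2 have every DOX point above every PBS point, while Ccnd2 and Pcna overlap.

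The plot of CPM by library shows the spread that the test weighs. The 3 DOX points of Ccnd1 and Rrm2 lie far apart, and those of Top2a lie close together.

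The remaining spindle and chromosome genes had positive estimates that did not pass the test. Kif11, the motor that separates spindle poles, stood at 2.84, 1.75 and 2.56 CPM in the DOX libraries, against 1.01, 1.31 and 1.52 CPM in the PBS libraries (log2 fold change 0.90, SE 0.30), with no overlap. Cenpe is a kinetochore motor, at 4.71, 2.56 and 3.79 CPM in the DOX libraries, against 1.51, 1.18 and 2.17 CPM in the PBS libraries (log2 fold change 1.18, SE 0.34), again with no overlap. Cenpf, a kinetochore and matrix protein, stood at 3.01, 1.69 and 3.08 CPM in the DOX libraries, against 0.636, 0.811 and 1.49 CPM in the PBS libraries. Its groups did not overlap, and the estimate of 1.40 (SE 0.42) had an edgeR adjusted p of 0.0851. Prc1 bundles midzone microtubules in anaphase and stood at 6.38, 5.66 and 7.64 CPM in the DOX libraries, against 4.11, 4.29 and 4.77 CPM in the PBS libraries (log2 fold change 0.58, SE 0.19). Its groups did not overlap, and its exons overlap those of Rccd1 on the opposite strand by 11.1%. Tpx2 activates Aurora A on the spindle and stood at 16.1, 9.35 and 9.41 CPM in the DOX libraries, against 11.2, 5.91 and 6.14 CPM in the PBS libraries. Library 1 was the highest in each group, and the groups overlapped (log2 fold change 0.58, SE 0.33). Kif23, a motor of cytokinesis, stood at 8.84, 4.42 and 6.25 CPM in the DOX libraries, against 2.94, 6.85 and 3.86 CPM in the PBS libraries with PBS library 2 inside the DOX range (log2 fold change 0.51, SE 0.38).

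The mitotic cyclins and their kinase were above PBS in every DOX library for all 4 genes, against 16.9% of all genes. By edgeR 0 of 4 passed the test, although all 4 had an unadjusted p under 0.05, and DESeq2 called 3. Over all genes these 3 shares were 6.41%, 28.7% and 19.8% in either direction. Cdk1 (chr10:69335146-69352912), the kinase that drives entry into mitosis, gave 198, 152 and 175 reads in the DOX libraries, against 95, 123 and 127 reads in the PBS libraries. Its log2 fold change was 0.73 (SE 0.22, adjusted p = 0.0848 by edgeR). Ccna2, the cyclin of S phase and G2, stood at 4.39, 3.27 and 2.78 CPM in the DOX libraries, against 1.83, 2.17 and 2.63 CPM in the PBS libraries, the narrowest gap of the 4 (log2 fold change 0.65, SE 0.27). Its exons overlap those of Exosc9 by 12.5%. Ccnb1, the main cyclin of mitotic entry, stood at 3.37, 2.20 and 3.68 CPM in the DOX libraries, against 1.22, 1.15 and 2.00 CPM in the PBS libraries (log2 fold change 1.08, SE 0.33), and the table has a separate row for a Ccnb1 pseudogene that may share its reads. Ccnb2, the other B cyclin, stood at 1.58, 1.35 and 2.32 CPM in the DOX libraries, against 0.822, 0.994 and 0.884 CPM in the PBS libraries (log2 fold change 0.96, SE 0.31), with no overlap.

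Mitotic kinases, the spindle checkpoint and the chromosomal passenger complex also gave 0 calls of 8 by edgeR, with 6 at an unadjusted p under 0.05 and 3 called by DESeq2. The shares over all genes were 6.41%, 28.7% and 19.8% in either direction. Among kinases, Aurka (Aurora A, of the spindle poles) stood at 3.31, 2.62 and 3.57 CPM in the DOX libraries, against 2.07, 1.83 and 2.05 CPM in the PBS libraries (log2 fold change 0.68, SE 0.23). Aurkb (Aurora B, of the passenger complex) stood at 1.40, 1.13 and 1.28 CPM in the DOX libraries, against 0.504, 0.942 and 0.783 CPM in the PBS libraries (log2 fold change 0.77, SE 0.33). Neither pair of groups overlapped. Plk1, a kinase of mitotic entry and exit, stood at 2.25, 1.18 and 2.51 CPM in the DOX libraries, against 0.636, 1.44 and 0.758 CPM in the PBS libraries, with DOX library 2 inside the PBS range (log2 fold change 1.07, SE 0.44).

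Bub1, a checkpoint kinase, gave 37, 45 and 31 reads in the DOX libraries, against 15, 19 and 20 reads in the PBS libraries. Its groups did not overlap, and its estimate of 2.27-fold (log2 fold change 1.18, SE 0.32) had an edgeR adjusted p of 0.0708. Its checkpoint partner Bub1b stood at 4.57, 4.56 and 5.46 CPM in the DOX libraries, against 5.09, 4.53 and 3.86 CPM in the PBS libraries, with overlapping groups and an estimate of 0.11 (SE 0.19) that was -0.01 by library totals. Cdc20, the activator of the anaphase-promoting complex, stood at 2.90, 2.11 and 3.79 CPM in the DOX libraries, against 1.48, 1.20 and 2.25 CPM in the PBS libraries, with DOX library 2 inside the PBS range (log2 fold change 0.83, SE 0.34). The passenger proteins survivin (Birc5) and borealin (Cdca8) stood apart from PBS in every DOX library. Birc5 stood at 1.35, 1.94 and 1.15 CPM in the DOX libraries, against 0.689, 0.602 and 1.04 CPM in the PBS libraries (log2 fold change 0.93, SE 0.36), and Cdca8 at 3.01, 2.96 and 3.19 CPM in the DOX libraries, against 1.78, 2.30 and 1.72 CPM in the PBS libraries (log2 fold change 0.66, SE 0.23).

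Most mitotic genes shared the lowest library of the DOX group, and the order within the PBS group was less shared. Of the 3 DOX libraries, library 2 was lowest for 17 of 21 genes, and libraries 1 and 3 were highest for 9 genes each. The 3 genes highest in DOX library 2 were Mki67, Bub1 and Birc5. Of the 3 PBS libraries, library 3 was highest for 11 genes and library 1 lowest for 11, while library 2 was highest for 6 and lowest for 8. Among the S phase genes, DOX library 2 was highest for 8 of 18. A ratio within each library puts both groups of genes on one scale. The summed FPKM of the 21 mitotic genes was 44.0%, 31.6% and 39.2% of that of Mcm2 to Mcm7 in the DOX libraries, against 19.8%, 19.3% and 20.3% in the PBS libraries. The means were 38.3 ± 6.26% in DOX and 19.8 ± 0.488% in PBS (SD, n = 3 each), and each DOX library lay above each PBS library.

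**Figure D4:**
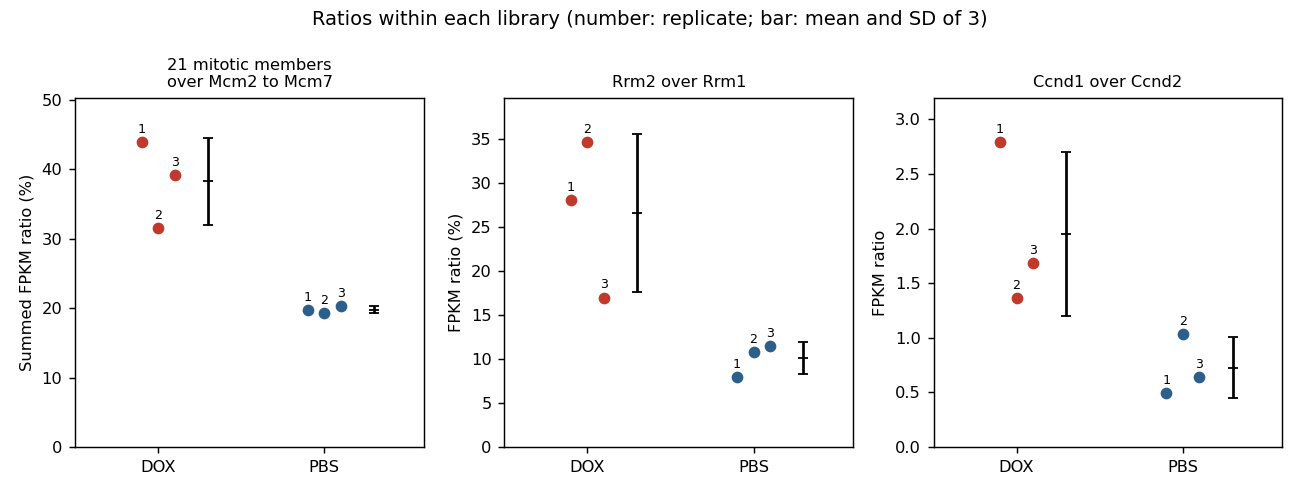
Ratios of FPKM within each library, DOX left of PBS: mitotic genes over Mcm2 to Mcm7, Rrm2 over Rrm1, and Ccnd1 over Ccnd2; each point is 1 library, numbered by replicate, and the black marks are the mean and SD of 3. In all 3 ratios each DOX library lies above each PBS library, and PBS libraries lie close together in the first, between 19.3% and 20.3%.

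Marker sums of blood-derived cells were higher in each DOX library than in each PBS library, as the mitotic sum was. The plot of ratios within libraries uses genes of one library at a time and so does not depend on scaling between libraries, but cells of several types contribute to each gene. Monocyte and neutrophil markers, led by Csf3r and Itgam, summed to 341 to 373 CPM in DOX libraries and 81.8 to 212 CPM in PBS libraries, with 4 of 7 tested higher in DOX. T and NK cell markers, led by Cd4 and Gzma, summed to 12.4 to 23.8 CPM in DOX libraries and 2.22 to 6.87 CPM in PBS libraries, with 3 of 8 higher. B and plasma cell markers, led by Jchain and Cd79b, summed to 6.90 to 16.9 CPM in DOX libraries and 1.39 to 3.06 CPM in PBS libraries, with 1 of 4 higher. The macrophage sum, given beside Ccnd1, was also higher in each DOX library. Within the DOX group, library 2 was lowest for 17 of 21 mitotic genes. It was also lowest for the macrophage (6993 CPM), T and NK cell (12.4 CPM) and B and plasma cell (6.90 CPM) sums. It was highest for the monocyte and neutrophil sum (373 CPM). Within the PBS group these sums did not share one order of libraries. PBS library 3 was highest for 11 of 21 mitotic genes and for the B and plasma cell sum (3.06 CPM). It was lowest for the monocyte and neutrophil sum (81.8 CPM) and the T and NK cell sum (2.22 CPM). Hepatocyte markers, led by Alb and Fgb, summed to 201 to 2788 CPM in DOX libraries and 126 to 312 CPM in PBS libraries, with 0 of 12 called by edgeR, 10 at an unadjusted p under 0.05 and 7 called by DESeq2. Cholangiocyte markers, led by Spp1 and Krt19, summed to 511 to 644 CPM in DOX libraries and 299 to 655 CPM in PBS libraries, with 1 of 6 higher. Spp1 alone gave 445 to 547 CPM in DOX libraries and 240 to 639 CPM in PBS libraries. All 6 estimates were positive. For 3 of 6 (Krt19, Krt7 and Epcam) each DOX library lay above each PBS library, against 16.9% of all genes tested. Erythroid genes, led by Alas2 and Hbb-bs, summed to 0.366 to 1.77 CPM in DOX libraries and 0.0785 to 0.202 CPM in PBS libraries, too low to test. No marker was at 0 in all 6 libraries. Their part in the mitotic result was not tested.

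S phase and mitotic genes are known for different promoter elements, and a count of these elements used no expression value. E2F factors bind sites searched here as TTTCCCGC, TTTGGCGC and GGCGGGAA. The CHR element, which MuvB complexes bind, was searched as TTTGAA and TTCGAA, and the CCAAT box, which NF-Y binds, as CCAAT. Both strands were searched, and GGCGGGAA can overlap the reverse of TTTCCCGC. RefSeq windows of GRCm38.p6 ran from 250 bases before to 50 after a start position. They were matched for 33 of 42 genes, with 36 windows in all since Ccnd3, Mcm7 and Prc1 have 2 each. The start position is not always the 5′ end of the gene. The single windows of E2f1, Cdc6 and Aurka lie wholly inside the gene, so sequence before its 5′ end was not searched. For E2f1 the window ends at chr2:154569676 and the gene (minus strand) at 154569892. The counts below are of genes, and a gene counts as holding a match where any window of it does. Ccnd1, Ccnd2, Ccne2, Mcm4, Gins1, Gins2, Ccna2, Aurkb and Tpx2 were not matched. The 7 windows below are those of mitotic genes that rose, of Cdk1, of 2 helicase genes and of Rrm2, each 5′ to 3′ on the strand of the gene. Capitals mark a match on either strand, so ATTGG is the reverse of CCAAT and TTCAAA that of TTTGAA. Positions are Top2a chr11:99024140-99024439 (minus strand), Mki67 chr7:135716330-135716629 (minus strand), Nusap1 chr2:119618048-119618347 (plus strand), Cdk1 chr10:69352863-69353162 (minus strand), Mcm3 chr1:20820263-20820562 (minus strand), Mcm6 chr1:128359656-128359955 (minus strand) and Rrm2 chr12:24708004-24708303 (plus strand).
Top2a: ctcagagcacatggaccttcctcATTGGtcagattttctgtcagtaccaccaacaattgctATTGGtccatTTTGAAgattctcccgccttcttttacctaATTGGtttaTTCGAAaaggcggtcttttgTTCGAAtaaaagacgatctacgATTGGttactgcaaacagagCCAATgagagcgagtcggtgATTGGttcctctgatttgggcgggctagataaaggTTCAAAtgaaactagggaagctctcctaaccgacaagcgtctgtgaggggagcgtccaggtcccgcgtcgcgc
Mki67: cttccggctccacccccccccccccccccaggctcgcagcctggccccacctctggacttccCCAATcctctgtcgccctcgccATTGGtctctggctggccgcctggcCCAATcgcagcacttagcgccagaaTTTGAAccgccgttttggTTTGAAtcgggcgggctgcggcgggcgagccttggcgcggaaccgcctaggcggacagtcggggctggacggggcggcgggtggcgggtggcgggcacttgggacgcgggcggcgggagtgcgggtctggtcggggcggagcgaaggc
Nusap1: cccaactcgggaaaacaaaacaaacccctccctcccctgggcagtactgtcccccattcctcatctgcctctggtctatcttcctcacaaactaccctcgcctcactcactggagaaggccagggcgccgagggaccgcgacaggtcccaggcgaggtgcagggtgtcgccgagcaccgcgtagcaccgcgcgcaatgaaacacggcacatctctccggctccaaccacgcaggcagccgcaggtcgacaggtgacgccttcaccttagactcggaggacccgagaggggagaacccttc
Cdk1: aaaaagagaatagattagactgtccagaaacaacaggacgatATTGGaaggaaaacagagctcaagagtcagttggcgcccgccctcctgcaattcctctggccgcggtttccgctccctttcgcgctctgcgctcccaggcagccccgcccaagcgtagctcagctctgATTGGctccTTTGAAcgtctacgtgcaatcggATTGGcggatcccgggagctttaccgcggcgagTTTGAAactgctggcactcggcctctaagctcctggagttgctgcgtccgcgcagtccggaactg
Mcm3: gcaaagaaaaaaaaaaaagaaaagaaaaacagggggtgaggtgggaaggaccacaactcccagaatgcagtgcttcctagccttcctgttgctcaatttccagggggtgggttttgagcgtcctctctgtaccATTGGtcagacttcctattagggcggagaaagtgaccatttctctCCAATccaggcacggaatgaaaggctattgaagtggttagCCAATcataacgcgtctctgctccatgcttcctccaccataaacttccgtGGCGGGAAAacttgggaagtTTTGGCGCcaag
Mcm6: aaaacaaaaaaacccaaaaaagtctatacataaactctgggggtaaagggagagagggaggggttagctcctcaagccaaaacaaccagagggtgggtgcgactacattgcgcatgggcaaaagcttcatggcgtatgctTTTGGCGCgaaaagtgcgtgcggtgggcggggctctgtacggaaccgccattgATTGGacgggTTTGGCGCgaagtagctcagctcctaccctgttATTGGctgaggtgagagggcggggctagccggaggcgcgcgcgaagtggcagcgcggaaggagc
Rrm2: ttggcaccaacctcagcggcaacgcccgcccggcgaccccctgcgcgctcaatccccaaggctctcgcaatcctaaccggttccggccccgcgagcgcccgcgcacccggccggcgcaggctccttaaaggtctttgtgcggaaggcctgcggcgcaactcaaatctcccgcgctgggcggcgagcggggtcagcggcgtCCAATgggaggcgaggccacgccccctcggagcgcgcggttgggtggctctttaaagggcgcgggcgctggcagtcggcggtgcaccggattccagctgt

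The Top2a window holds 4 CHR and 6 CCAAT matches, and the Mki67 and Cdk1 windows hold 2 CHR and 3 CCAAT matches each. None of these 3 windows holds an E2F match. The CHR match nearest the start lies at position -23 in Top2a, -15 in Cdk1 and -98 in Mki67. The Nusap1 window holds no match to any of the letters searched, although the gene rose. Mcm3 holds 3 E2F matches, of which 2 overlap, and Mcm6 holds 2, and neither holds a CHR match. Rrm2, whose estimate lay among the mitotic ones, holds 1 CCAAT match and no E2F or CHR match.

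Over all matched members the elements divided by position in the cycle. A CHR match was found in 14 of 18 mitotic genes (77.8%) and 2 of 14 S phase genes (14.3%), against 21.7% of 27025 genes with a window. The mitotic genes without one were Ccnb1, Cenpe, Birc5 and Nusap1, and the S phase genes with one were Mcm2 and Mcm7. An E2F match was found in 0 of 18 mitotic and 7 of 14 S phase genes (50%), against 3.69% of all genes. The 7 were Mcm3, Mcm5, Mcm6, Mcm7, Cdc6, Cdt1 and Rrm1. The E2F match of Cdc6, the CHR match of Aurka and the lack of a match in E2f1 come from windows wholly inside the gene. A CCAAT match was found in 16 of 18 mitotic and 9 of 14 S phase genes, against 41.1% of all genes, and CHR and CCAAT matches occurred together in 14 of 18 mitotic and 2 of 14 S phase genes, against 9.65% of all genes. Ccnd3, the single G1 cyclin matched, holds a CCAAT match in 1 of its 2 windows and no E2F or CHR match. A match says that these letters occur, not that a factor was bound.

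**Figure D5:**
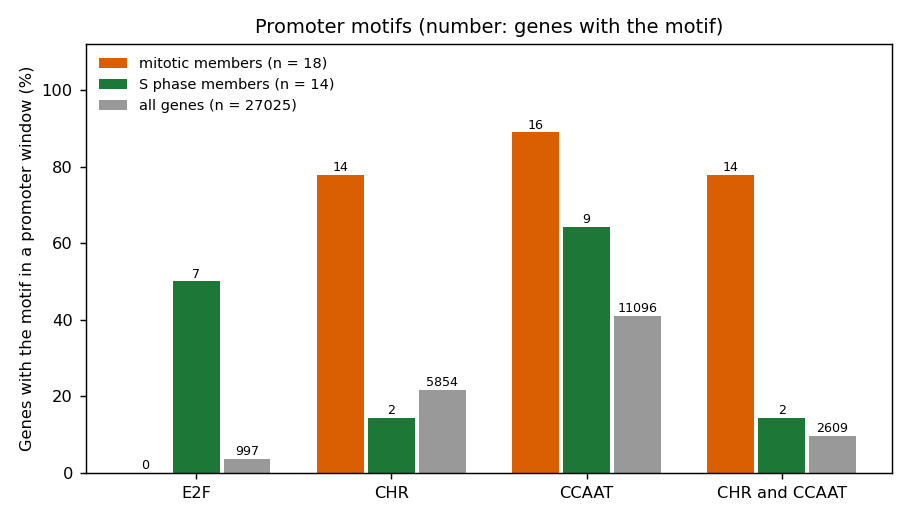
Share of genes (percent, from 0) with an E2F, CHR or CCAAT match in a promoter window, for mitotic members (18 genes), S phase members (14 genes) and all genes with a window (27025). Mitotic members hold CHR matches in 77.8% and E2F matches in none, and S phase members hold E2F matches in 50% and CHR matches in 14.3%.

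The plot of motif shares sets the members beside all genes. The 4 helicase genes with an E2F match (Mcm3, Mcm5, Mcm6 and Mcm7) have estimates between -0.21 and 0.21. The other genes with an E2F match are Cdt1, Rrm1 and Cdc6, with estimates of -0.03, -0.0017 and 0.97. A link between matches and estimates was not tested.

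Genes around the members were read from lists, which were themselves chosen with results of these libraries known. Over all genes, edgeR called 6.41%, 28.7% had an unadjusted p under 0.05 by edgeR, and DESeq2 called 19.8%, in either direction. For E2F, RB and DREAM regulators, 0 of 21 were called by edgeR and 5 had an unadjusted p under 0.05. DESeq2 called 1 higher and 1 lower of 20. The list's median log2 fold change was -0.04. Rbl1, which encodes the RB relative p107 of the DREAM complex, averaged 45.0 ± 12.4 CPM in DOX and 19.4 ± 7.07 CPM in PBS (log2 fold change 1.21, edgeR adjusted p = 0.0592). E2f6, a repressor of the family, averaged 23.8 ± 5.03 CPM in DOX and 36.8 ± 1.82 CPM in PBS (edgeR adjusted p = 0.0632), and E2f8, an atypical repressor, averaged 1.46 ± 0.557 CPM in DOX and 0.664 ± 0.127 CPM in PBS (edgeR adjusted p = 0.118). Of the 18 tested among 19 cyclin-dependent kinases, regulators and inhibitors, 2 fell and 0 rose by edgeR, with a median of 0.01. At an unadjusted p of 0.05 there were 5, and DESeq2 called 1 higher and 3 lower. The genes that fell by edgeR were Cdkn2b and Cdkn2a, whose products include inhibitors of Cdk4 and Cdk6. Counts by symbol do not separate the transcripts of a gene. Cdkn2b stood at 23.9, 23.0 and 32.8 CPM in the DOX libraries, against 67.9, 62.0 and 52.3 CPM in the PBS libraries, and Cdkn2a at 1.93, 2.11 and 1.61 CPM in the DOX libraries, against 4.11, 4.55 and 3.94 CPM in the PBS libraries, with each DOX library below each PBS library in both (edgeR adjusted p = 0.0240 and 0.0334). Cdkn2d, another inhibitor of the family, had an estimate of 0.86 (edgeR adjusted p = 0.0861).

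Among 48 other replication genes 1 fell and 0 rose by edgeR, with a median of -0.08. At an unadjusted p of 0.05 there were 13, and DESeq2 called 3 higher and 2 lower of 47. The gene that fell was Pole2, an accessory subunit of the leading strand polymerase, at 2.58, 2.62 and 2.43 CPM in the DOX libraries, against 4.48, 4.55 and 4.60 CPM in the PBS libraries (log2 fold change -0.84, SE 0.18, adjusted p = 0.0453 by edgeR). Chaf1b, a histone chaperone subunit, stood at 17.6, 14.7 and 5.57 CPM in the DOX libraries, against 4.51, 4.60 and 5.10 CPM in the PBS libraries, with DOX library 3 well below the other DOX libraries (edgeR adjusted p = 0.0770). Among 21 other genes of nucleotide synthesis 1 rose and 0 fell by edgeR, with a median of -0.18. The count at an unadjusted p of 0.05 was 6, and DESeq2 called 3 higher and 3 lower. The gene that rose was Samhd1, which breaks down deoxynucleotides rather than making them, at 1125, 866 and 691 CPM in the DOX libraries, against 504, 298 and 304 CPM in the PBS libraries (log2 fold change 1.28, SE 0.26, adjusted p = 0.0410 by edgeR). Dck, a deoxynucleoside salvage kinase, had an estimate of 1.15 (edgeR adjusted p = 0.0537), and Ppat, the first enzyme of purine synthesis, one of -0.58 (edgeR adjusted p = 0.0813).

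Of 59 other mitotic genes 56 were tested, 2 rose and 0 fell by edgeR. These calls are 3.57% of those tested, below the 6.41% of all genes. The list's median was 0.53, with 47 estimates above 0 and 9 below. At an unadjusted p of 0.05, 22 were higher and 2 lower, against 28.7% of all genes in either direction. DESeq2 called 11 higher and 2 lower of 50, against 19.8% of all genes. Hmgb2, a chromatin protein abundant in dividing cells, stood at 16.9, 13.7 and 15.4 CPM in the DOX libraries, against 7.53, 8.06 and 8.08 CPM in the PBS libraries (log2 fold change 0.96, SE 0.13, adjusted p = 0.0240 by edgeR). Nuf2, a subunit of the kinetochore complex that holds microtubules, stood at 0.819, 0.986 and 0.982 CPM in the DOX libraries, against 0.345, 0.262 and 0.278 CPM in the PBS libraries (log2 fold change 1.65, SE 0.32, adjusted p = 0.0356 by edgeR). In both genes the groups did not overlap. Kif18b, a motor that shortens microtubules, had an estimate of 1.59 (edgeR adjusted p = 0.0523).

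Of 26 growth factors, receptors and early factors tested that can precede cyclin D induction, 2 rose and 1 fell by edgeR, with a median of 0.02. These 3 calls are 11.5% of those tested, against 6.41% of all genes. At an unadjusted p of 0.05, 4 were higher and 4 lower, and DESeq2 called 4 higher and 3 lower. Fos, an immediate early factor that rose, stood at 31.3, 22.6 and 24.9 CPM in the DOX libraries, against 13.8, 12.7 and 13.9 CPM in the PBS libraries (log2 fold change 0.96, SE 0.15, adjusted p = 0.0255 by edgeR). Igf1r, the receptor of insulin-like growth factor, fell and averaged 33.5 ± 2.97 CPM in DOX and 47.2 ± 4.17 CPM in PBS (log2 fold change -0.49, edgeR adjusted p = 0.0455). All 9 calls in these lists ended without DOX library 1, without PBS library 2 and without PBS library 3, at edgeR adjusted p between 0.0597 and 0.144, and 6 of them also without another library.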

How the data were processed

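Per the labels' protocols, RNeasy columns gave the RNA and a SMARTER mRNA kit the libraries. The sources used here do not state the aligner, the counting tool or the use of strand. The submitters' processing notes list the builds GRCm38, mm10 and hg38 without saying what each was for. Raw read counts for 22905 gene symbols were deposited by the authors with 1 column per library, together with FPKM values, which equal the same deposited counts per fixed gene length and library total. FPKM served for levels between genes, sums over genes, ratios within a library and 2 alternatives. Where FPKM of DOX and PBS are set side by side, they are not TMM-scaled.

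Counts were tested with the quasi-likelihood test of edgeR 4.0.16 in R 4.3.3. TMM scaling and filterByExpr (minimum count 10, minimum total count 15) were used, all 6 libraries entered the fit, and group was the only term. The test was two-sided, with Benjamini-Hochberg adjustment over 14439 genes and a threshold of 0.05. TMM factors were 0.923 to 1.01 in DOX and 1.02 to 1.06 in PBS, at a common coefficient of variation of 0.230. CPM use TMM-scaled library sizes, and SEs and 95% intervals were derived from the F statistic. DESeq2 1.42.0, limma 3.58.1, other scalings and filters, a replicate block and the removal of each library were alternatives. The tests were first run on simulated counts with known changes. Replicates were not repeats of one library, since chi-square per degree of freedom was 38.6 to 82.1 within groups.

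The 42 genes, the lists and the markers were chosen with earlier results of these data known. All members, Bche, the 3 genes of lowest p in each pathway list and the 2 most abundant genes of each marker list are named by rule, apart from 2 list genes that are not reported here. C1qb, C1qc, Tek, Krt7, Epcam and genes that overlap members were named after their values were seen. Exon overlaps come from GENCODE M21, and coordinates and promoter windows from RefSeq on GRCm38.p6. Overlap percentages are of all annotated exon bases of a gene. These can exceed the gene length behind the FPKM (8225 against 3584 bases for Prc1), so they need not describe the counted gene model.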

Additional observations from a re-analysis of the deposited data

How the results depend on the processing

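Counts of calls among the 42 genes changed more with the choices than the medians did. The count was 4 with RLE scaling, 3 by library totals, 5 with no low-count filter, 3 with a filter of 5 CPM in 3 libraries, 3 by limma-voom and 3 on log2(FPKM + 1) or log2(FPKM + 0.1), and it was 16 by DESeq2, all higher in DOX, where 2692 genes were called in all. Leaving out each library in turn gave 0 to 4 members and 0 to 1090 genes in all. The 0 came without PBS library 2 or PBS library 3, with smallest member adjusted p of 0.0694 and 0.0739 by edgeR. The mitotic median was 0.79 to 0.93 without each library, 0.59 under the 5 CPM filter (5 genes left), 0.28 on log2(FPKM + 1), where the pseudocount shrinks low genes, and 0.60 on log2(FPKM + 0.1). The S phase median was -0.02 to 0.08 without each library, and -0.0567, -0.0488 and -0.0544 by library totals, log2(FPKM + 1) and log2(FPKM + 0.1). The Mcm2 to Mcm7 median was -0.20 to -0.10 without each library, and -0.30, -0.29 and -0.31 in those 3 settings, which do not use TMM scaling. The G1 median was 0.26 to 0.39 without each library.

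In those 3 settings, estimates near 0 changed sign to -0.10, -0.0845 and -0.0888 for Ccnd2, to -0.11, -0.0901 and -0.10 for Mcm4, to -0.0073, -0.0076 and -0.0076 for Pcna, and to -0.0051, -0.0042 and -0.0081 for Bub1b. Rrm1 was 0.0102, 0.0074 and 0.0100 with RLE scaling, the 5 CPM filter and DESeq2. Leaving out each library in turn gave -0.13 to 0.15 for Ccnd2, -0.0386 to 0.0788 for Mcm4, -0.0268 to 0.0327 for Rrm1 and -0.10 to 0.65 for Ccne2. The cause was not tested.

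Replicate numbers are shared by the groups, but deviations of same-numbered libraries correlated at 0.0949, -0.106 and 0.232, and 1 of 3 numbers had its best partner in its own number. The numbers were therefore not taken as pairs. With the replicate number as a block, 1 member (Top2a, edgeR adjusted p = 0.0285) was called, and Ccnd1, Nusap1 and Mki67 had edgeR adjusted p of 0.0540, 0.0562 and 0.0880. All 21 mitotic estimates stayed positive when any 1 library was left out.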
